A study of Mus musculus with 8 samples.

Results

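YAP and TEAD target genes were followed in single cells of SN4741, a mouse neural precursor line, at 2 temperatures. The set of 9 genes of 31053 was chosen by name: 6 genes known as targets of YAP and the TEAD factors (Ctgf, Cyr61, Ankrd1, Amotl2, Lats2 and Axl), the gene of YAP itself (Yap1) and those of a pair of TEAD factors (Tead1 and Tead2). All 9 had counts in every library and passed the filter on low counts. The fewest UMIs (unique molecular identifiers, counts of captured transcript molecules) of any of them in 1 library were 430, for Ctgf.

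SN4741 is a clonal line taken from the embryonic mouse substantia nigra and immortalised by a viral T antigen that loses activity in the heat, placed under a tyrosine hydroxylase promoter. All libraries carry this transgene and are wild type by their labels. Cells of 4 libraries grew at 37 °C in 10% serum, and those of the other 4 spent 48 hours at 39 °C in 0.5% serum to start differentiation, so the effects of temperature and of serum cannot be told apart. The labels number the libraries 1 to 4 at each temperature and do not say whether these came from separate cultures, so the p-values measure the spread between these libraries, which may be technical.

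In the Hippo pathway the kinases MST1 and MST2, with the adaptor SAV1, activate the kinases LATS1 and LATS2, which with MOB1 phosphorylate YAP and its paralog TAZ and hold them in the cytoplasm. YAP that escapes this enters the nucleus and binds TEAD factors, which have the DNA-binding domain that YAP lacks. The pathway responds to cell density, spreading, tension of the actin skeleton and serum lipids, and YAP is known for keeping neural precursors in proliferation. Several targets feed back on the pathway, and the phosphorylation that sets YAP activity leaves no direct trace in RNA counts.

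The 18351 cells kept by the study's limits (8550 at 37 °C and 9801 at 39 °C, of 19125 deposited) held 17166686 to 29633818 UMIs per library. The median cell held 9839 to 15413 UMIs at 37 °C and 6676 to 16665 at 39 °C. Library 1 at 39 °C stood apart with the fewest cells (985) and the most UMIs per cell. At most 5 cell barcodes were shared by any pair of libraries. Cells assigned to G1 from their cell cycle genes made up 20.6 to 28.7% of a library at 37 °C and 82.5 to 85.4% at 39 °C, and none of the 9 genes is in the cell cycle lists. Of the neural progenitor markers, Nes and Sox2 gave nearly all counts, while Hes5 was at 0 and Pax6, Sox1, Fabp7 and Msi1 had 1 to 12 UMIs over all libraries. The summed level of these markers was 486 to 595 CPM (counts per 1000000 counts) at 37 °C and 178 to 196 at 39 °C, and that of the mesenchymal markers (Col1a1, Prrx1, Twist1 and others) 2017 to 2096 and 1099 to 1127. Not all members moved with their sum. The mean of Nes fell from 467 to 108 CPM, while that of Sox2 rose from 55.4 to 76.5. Of 7 mesenchymal markers tested 5 were lower at 39 °C and 1, Twist1, was higher (60.5 to 83.9 CPM), beside 30.5% and 31.5% of all genes tested. The neuron markers summed to 165 to 193 and 79.3 to 97.7 CPM, nearly all from Stmn2, Map2 and Tubb3. Dcx was at 0, and Snap25, Syt1 and Rbfox3 had 1, 7 and 18 UMIs over all libraries. Glial markers summed to 4.37 to 5.37 CPM over both temperatures with Sox10 and Olig2 at 0, endothelial markers to 0.574 to 1.17 CPM with Cdh5 at 0, and immune markers to 15.97 to 19.04 CPM at 37 °C and 28.0 to 36.2 at 39 °C, mostly Cd68. The part of these marker levels in the results on the 9 genes was not tested.

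TEAD factors bind DNA at the letters GGAATG, on either strand. RefSeq promoters (GRCm38.p6, 250 bases before to 50 after a gene's start, written along the gene's own strand) were at hand for 7 of the 9 genes, and 6 of these 7 held the letters on 1 strand or the other, against 14.7% of 32851 promoter windows of the same length. Those of Cyr61, which did not pass the temperature test in all cells, and of Ankrd1, Amotl2, Axl and Lats2, which did pass it, 2 as lower and 2 as higher at 39 °C, are shown because the same letters stand in all of them. Capitals mark these letters, which read CATTCC where they stand on the other strand. The windows lie on the minus strand at chr3:145649936-145650235 (Cyr61), chr19:36119795-36120094 (Ankrd1), chr7:25788684-25788983 (Axl) and chr14:57746074-57746373 (the first of 2 windows of Lats2), and on the plus strand at chr9:102717554-102717853 (Amotl2).
Cyr61: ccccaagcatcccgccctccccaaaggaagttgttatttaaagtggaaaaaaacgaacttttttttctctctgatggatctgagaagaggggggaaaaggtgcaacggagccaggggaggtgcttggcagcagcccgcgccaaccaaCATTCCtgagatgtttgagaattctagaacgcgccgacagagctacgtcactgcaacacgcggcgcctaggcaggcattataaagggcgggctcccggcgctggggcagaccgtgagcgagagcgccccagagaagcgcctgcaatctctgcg
Ankrd1: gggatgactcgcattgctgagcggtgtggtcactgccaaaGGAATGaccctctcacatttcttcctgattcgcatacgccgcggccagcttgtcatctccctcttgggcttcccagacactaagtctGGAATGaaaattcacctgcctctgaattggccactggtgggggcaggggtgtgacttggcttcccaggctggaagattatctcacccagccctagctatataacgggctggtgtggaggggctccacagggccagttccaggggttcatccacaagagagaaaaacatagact
Amotl2: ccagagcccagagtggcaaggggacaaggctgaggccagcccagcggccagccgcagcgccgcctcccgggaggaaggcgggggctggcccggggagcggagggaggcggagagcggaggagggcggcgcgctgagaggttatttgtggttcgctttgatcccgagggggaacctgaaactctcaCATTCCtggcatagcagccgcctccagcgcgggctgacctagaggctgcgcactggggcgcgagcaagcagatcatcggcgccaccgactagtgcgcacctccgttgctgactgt
Axl: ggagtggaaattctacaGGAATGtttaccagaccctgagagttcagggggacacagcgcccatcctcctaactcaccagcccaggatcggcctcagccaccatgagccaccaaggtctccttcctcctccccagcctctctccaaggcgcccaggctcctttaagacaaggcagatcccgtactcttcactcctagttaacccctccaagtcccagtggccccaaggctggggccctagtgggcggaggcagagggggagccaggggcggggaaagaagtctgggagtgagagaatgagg
Lats2: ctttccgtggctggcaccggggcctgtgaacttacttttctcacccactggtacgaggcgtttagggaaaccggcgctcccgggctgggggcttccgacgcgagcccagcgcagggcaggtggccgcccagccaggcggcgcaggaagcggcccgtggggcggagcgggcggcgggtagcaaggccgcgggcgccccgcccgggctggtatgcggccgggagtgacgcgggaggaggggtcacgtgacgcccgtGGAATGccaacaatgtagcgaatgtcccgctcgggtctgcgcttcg
Ankrd1 held the letters at 2 places, -210 to -205 and -123 to -118 from its start, the others shown at 1 place each: Cyr61 at -103 to -98, Amotl2 at -65 to -60, Axl at -233 to -228 and Lats2 at 5 to 10 past the start. Yap1 held them at -141 to -136, and neither Tead2 nor the other window of Lats2 held them. TGANTCA, the letters bound by AP-1, was found in 0 of the 7 genes against 7.81% of all windows, and the CArG box, bound by serum response factor (SRF), in 0 of 7 against 1.63%. Each motif was searched on both strands, and these motifs share no letters within a window shown. Genes were counted as holding a motif if any of their windows did, whereas the background counts single windows. Most of these genes were also chosen as known targets, so no excess of the TEAD letters is read here. A match is a description of the letters and says nothing of binding in these cells.

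Which of these genes differed between the temperatures was asked first in all kept cells, with counts summed per library. Of the 9, 3 were higher at 39 °C (Axl, Yap1 and Lats2), 3 were lower (Ankrd1, Amotl2 and Tead2) and 3 did not pass (Ctgf, Cyr61 and Tead1). Among all 15810 genes tested 62% passed (31.5% higher and 30.5% lower), so a count of 6 of 9 is near the background. The median log2 fold change of the 9 was -0.10, against 0.02 for all genes tested. The study used a stricter limit in its bulk data, with an adjusted p under 0.01 and a change beyond 1.5 either way on the log2 scale. Of the 9 genes 0 were past it and of all genes tested 5.83%.

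**Figure D1:**
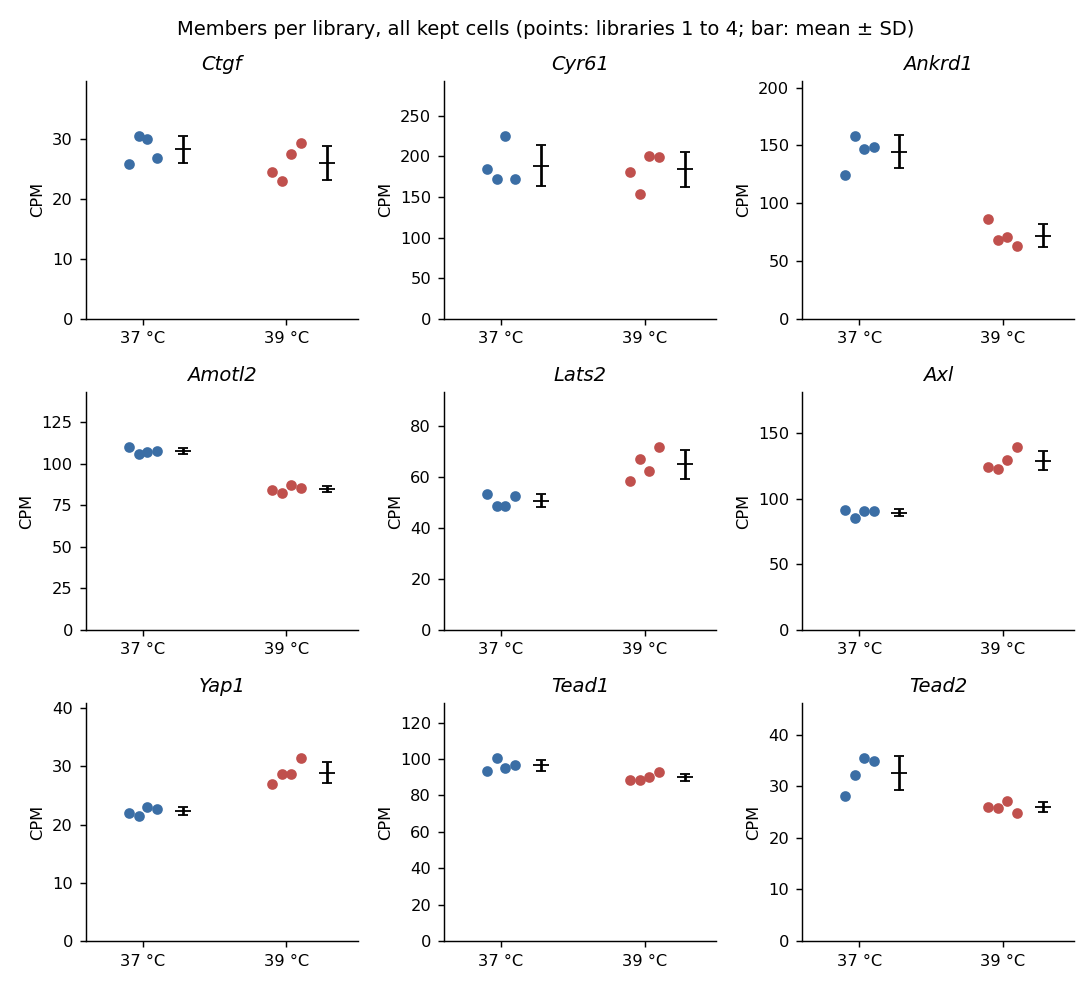
Level of each of the 9 genes in CPM (vertical axes from 0) in all kept cells of each library, at 37 °C (blue, 4 libraries) and 39 °C (red, 4 libraries), with the mean ± SD of each temperature in black. The levels of Ankrd1, Amotl2, Tead1 and Tead2 at 39 °C lie below all those at 37 °C, those of Lats2, Axl and Yap1 lie above, and those of Ctgf and Cyr61 overlap.

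Of the secreted targets, Ctgf (chr10:24595442-24598683) and Cyr61 (chr3:145646976-145649981, both GRCm38) encode matricellular proteins that bind integrins and are the readouts most often used for YAP activity. Ctgf stood at 25.7, 30.5, 29.9 and 26.8 CPM in libraries 1 to 4 at 37 °C and at 24.4, 22.9, 27.4 and 29.2 CPM at 39 °C. The libraries of the temperatures overlapped, with a log2 fold change (39 °C over 37 °C, as in all temperature comparisons here) of -0.11 ± 0.072 (SE), adjusted p = 0.186. Without library 4 at 39 °C it was -0.18 with adjusted p = 0.0398, so that 1 library decides this call. Cyr61 stood at 185, 172, 225 and 172 CPM at 37 °C and at 181, 154, 201 and 200 CPM at 39 °C. It too overlapped, at -0.03 ± 0.085 (adjusted p = 0.743).

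Ankrd1 (chr19:36111961-36120099), an ankyrin repeat protein of the nucleus and sarcomere that rises under mechanical stress, had the largest change of the 9. It stood at 125, 158, 147 and 149 CPM at 37 °C and at 86.6, 67.8, 70.5 and 62.8 CPM at 39 °C. Every 39 °C library lay below every 37 °C library, with means of 145 ± 14.2 and 71.9 ± 10.3 CPM (SD, n = 4 libraries each). On the log2 scale this was -1.01 ± 0.081 (adjusted p = 1.94e-09).

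The feedback members moved in opposite directions. Amotl2 (chr9:102716672-102733418), an angiomotin that holds YAP at junctions, fell from 110, 106, 107 and 108 CPM to 84.3, 82.1, 87.0 and 85.6 CPM. Every library at 39 °C lay below every one at 37 °C (-0.34 ± 0.042, adjusted p = 7.47e-07). Lats2 (chr14:57689662-57758388), the kinase that phosphorylates YAP, rose from 53.3, 48.5, 48.5 and 52.7 CPM to 58.5, 67.2, 62.2 and 71.8 CPM. Its lowest library at 39 °C lay just above its highest at 37 °C (0.36 ± 0.059, adjusted p = 2.65e-05). The gene Gm49361 overlaps Lats2 on the same strand, so reads of the pair may be split between them.

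Axl (chr7:25757273-25788705), a receptor tyrosine kinase that binds GAS6, stood at 90.9, 85.0, 90.3 and 90.7 CPM at 37 °C and at 124, 123, 130 and 139 CPM at 39 °C. It had the largest rise of the 9, with no overlap between the groups (0.53 ± 0.049, adjusted p = 1.44e-08).

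Among the factors themselves, Yap1 (chr9:7931999-8004596) rose from 22.04, 21.5, 23.1 and 22.7 CPM to 26.9, 28.7, 28.7 and 31.4 CPM, with no overlap (0.38 ± 0.054, adjusted p = 5.04e-06). Tead1 (chr7:112679318-112906807) stood at 93.2, 100, 95.2 and 96.8 CPM at 37 °C and at 88.3, 88.6, 90.3 and 92.7 CPM at 39 °C. The groups did not overlap, as for 56.7% of all genes tested, but the difference was small and missed the limit (-0.10 ± 0.044, adjusted p = 0.057). It passed under 7 of the 20 alternatives, among them without library 1 at 37 °C (-0.14, adjusted p = 0.0136) or library 4 at 39 °C (-0.12, adjusted p = 0.0395). Tead2 (chr7:45215753-45233644) fell from 28.2, 32.2, 35.4 and 34.8 CPM to 26.0, 25.7, 27.2 and 24.8 CPM, again with no overlap (-0.33 ± 0.064, adjusted p = 0.000161). Cd37 overlaps Tead2 on the opposite strand.

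Since most cells at 39 °C were in G1 and most at 37 °C were not, the comparison was repeated in G1 cells alone. The 3 genes that were higher in all cells were higher here as well, and 4 were lower, Ctgf joining Ankrd1, Amotl2 and Tead2. Of 14712 genes tested 47.1% passed (24.8% higher and 22.4% lower). In G1 cells Ctgf stood at 30.2, 31.2, 29.8 and 34.0 CPM at 37 °C and at 24.7, 22.6, 26.5 and 28.1 CPM at 39 °C. Past the stricter limit were 0 of the 9 and 2.54% of all genes tested. For Ctgf the groups no longer overlapped, as for 44% of all genes tested, and the log2 fold change was -0.29 ± 0.077 (adjusted p = 0.00318).

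Ankrd1 stood at 95.1, 105, 112 and 135 CPM in G1 cells at 37 °C and at 74.1, 57.6, 57.0 and 47.8 CPM at 39 °C, with no overlap (-0.92 ± 0.10, adjusted p = 8.43e-08). Amotl2 (-0.39), Axl (0.50) and Lats2 (0.27, adjusted p = 0.00311) kept their directions, though the libraries of Lats2 overlapped. The calls of Yap1 (0.21 ± 0.073, adjusted p = 0.0192) and Tead2 (-0.20 ± 0.082, adjusted p = 0.0466) were weak, and the libraries of both overlapped here as well. Yap1 missed the limit without library 4 at 39 °C (0.16, adjusted p = 0.0725) or library 2 or 3 at 37 °C (0.20 in both, adjusted p = 0.0551 and 0.0512). Tead2 missed it without library 4 at 37 °C (-0.11, adjusted p = 0.295) or at 39 °C (-0.18, adjusted p = 0.097), and at -0.19 to -0.21 without library 2 or 3 at 37 °C or library 2 at 39 °C. Cyr61 (-0.08, adjusted p = 0.446) and Tead1 (-0.09, adjusted p = 0.159) did not pass.

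The same comparison in cycling cells, those assigned to S or G2M, was added after the data were seen. Their mix differed between the temperatures. At 37 °C S cells were 36.7 to 42.1% of a library and G2M cells 34.2 to 37.3%. At 39 °C these shares were 10.6 to 12.1% and 2.94 to 5.35%. The part of this mix in the values was not tested. Amotl2 (-0.36 ± 0.060) was lower and Lats2 (0.38 ± 0.068) and Axl (0.38 ± 0.065) were higher at 39 °C, with no overlap between the libraries of the temperatures for any of the 3. Of 14760 genes tested 44.3% passed (20.6% higher and 23.8% lower), and 42.4% did not overlap. Past the stricter limit were 0 of the 9 and 2.31% of all genes. Ankrd1 in cycling cells stood at 137, 174, 159 and 154 CPM at 37 °C and at 170, 131, 151 and 141 CPM at 39 °C. These libraries overlapped, and the log2 fold change was -0.08 ± 0.074 (adjusted p = 0.382). Yap1 stood at 20.4 to 22.8 CPM at 37 °C and at 19.8 to 23.2 CPM at 39 °C (0.02 ± 0.089, adjusted p = 0.89). Ctgf (0.18, adjusted p = 0.177) and Cyr61 (0.01, adjusted p = 0.947) did not pass, though with library totals only Ctgf passed as higher (0.26, adjusted p = 0.0466). Nor did Tead1 (-0.14, adjusted p = 0.0595) and Tead2 (-0.18, adjusted p = 0.0966), but Tead1 passed at -0.17 to -0.18 without library 1 or 3 at 37 °C or library 3 or 4 at 39 °C, and Tead2 at -0.25 without library 1 at 37 °C or library 3 at 39 °C.

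These values depend on how phases were assigned. The phases above come from scoring all cells together. Scored in each library alone, cycling cells made up 41.2 to 45.9% of a library at 39 °C in place of 14.6 to 17.5%, and 57.5 to 61.9% at 37 °C in place of 71.3 to 79.4%. Ankrd1 in cycling cells was then lower at 39 °C by -0.72 on the log2 scale (adjusted p = 8.13e-08), Yap1 was higher by 0.23 (adjusted p = 0.00522), and Tead2 was lower by -0.31 (adjusted p = 0.00084). The fall of Ankrd1 in G1 cells was -1.13 with these phases.

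**Figure D2:**
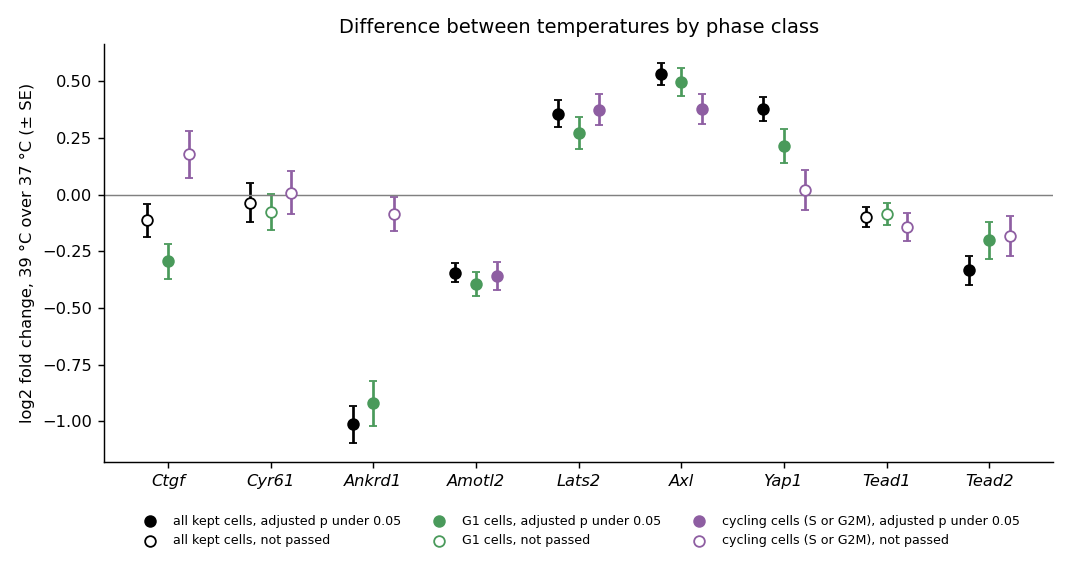
Log2 fold change (39 °C over 37 °C, ± SE, vertical axis) of each of the 9 genes in all kept cells (black), G1 cells (green) and cycling cells (purple), with phases scored on all cells together. Filled points passed at an adjusted p under 0.05 (edgeR). Amotl2, Lats2 and Axl passed in all 3 classes of cells, whereas Ankrd1 was near -1 in all and in G1 cells and at -0.08 in cycling cells.

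Whether a gene differed between G1 and cycling cells, and whether that difference changed with temperature, was tested in 1 fit over the G1 and cycling sums of each library, with the library as a block. The cycling sums hold S and G2M cells in unlike mixes at the 2 temperatures, and the part of this mix was not tested. At 37 °C 2 of the 9 genes were higher in cycling cells and 2 were lower, beside 43.5% of 14745 genes tested that passed (25% higher and 18.4% lower). At 39 °C 3 were higher and 2 lower, beside 40.3% (19.2% higher and 21.1% lower). The difference between the temperatures passed for 2 of the 9, both with a positive value, beside 16.3% of all genes (5.13% positive and 11.1% negative). These splits rest on the scaling. With library totals alone the share of positive values among the calls went from 57.6 to 43.6% at 37 °C, from 47.7 to 56.7% at 39 °C and from 31.6 to 73.3% for the difference, and the median of all genes moved by 0.12 for the difference, so small values of either sign are not read here. In the comparison of temperatures in cycling cells that share went from 46.4 to 59.0%.

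Ankrd1 was higher in cycling cells in 4 of 4 libraries at each temperature. At 37 °C its mean went from 111 CPM in G1 cells to 158 in cycling cells (log2 0.50 ± 0.036). At 39 °C it went from 58.8 to 148 CPM (1.35 ± 0.044). The difference of 0.84 ± 0.057 passed (adjusted p = 5.42e-47), and the very small p comes with a spread that this fit took as common to genes of like level. With phases scored in each library alone the difference was 0.43 ± 0.057 (adjusted p = 2.83e-09), with values of 0.44 at 37 °C and 0.87 at 39 °C.

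Split into the 3 phases, with plain library totals as the base, Ankrd1 was highest in S in 8 of 8 libraries. At 37 °C the levels in G1, S and G2M were 93.7, 163 and 103 CPM in library 1. They were 106, 201 and 132 in library 2, 114, 190 and 119 in library 3, and 136, 170 and 128 in library 4. At 39 °C they were 74.4, 189 and 140 in library 1, 56.8, 143 and 109 in library 2, 56.5, 166 and 134 in library 3, and 47.5, 148 and 134 in library 4. The S cells of the temperatures thus overlapped in level, while G1 cells of every 39 °C library lay below those of every 37 °C library. The S and G2M values at 39 °C rest on few cells, with 29 G2M cells in library 1 and at most 423 S cells in any library.

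Ctgf differed between the temperatures in this respect. At 37 °C it was higher in cycling cells in 1 of 4 libraries (mean 31.2 in G1 and 28.1 CPM in cycling cells, -0.16 ± 0.066, adjusted p = 0.0413), and this call was lost without library 1 (-0.12) or library 4 (-0.08) at 37 °C. At 39 °C it was higher in 4 of 4 libraries (25.3 and 30.7 CPM, 0.30 ± 0.079, adjusted p = 0.000592). The difference was 0.46 ± 0.10 (adjusted p = 0.000163). With phases scored in each library the value at 39 °C was 0.01 (adjusted p = 0.936) and the difference 0.23 (adjusted p = 0.0472).

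The secreted targets had their lowest level at 37 °C in G2M. Ctgf stood at 17.8, 23.0, 18.4 and 15.99 CPM in G2M cells of libraries 1 to 4, against 29.7, 31.4, 30.5 and 34.3 in G1 and 30.1, 35.5, 40.4 and 33.0 in S. Cyr61 stood at 151, 134, 182 and 144 CPM in G2M, against 198, 170, 233 and 187 in G1 and 203, 199, 265 and 186 in S. For both genes G2M lay below G1 and S in 4 of 4 libraries, which the cycling sum does not show since it adds S and G2M. This order was not particular to them. In library 1 at 37 °C Amotl2 stood at 119, 110 and 99.8 CPM in G1, S and G2M. Lats2 stood at 58.8, 51.6 and 49.0 there and Tead1 at 95.0, 97.3 and 84.3. Ankrd1, Axl, Yap1 and Tead2 were not lowest in G2M in that library, but Ankrd1 was so in library 4 at 37 °C. How common the order is among all genes was not tested. At 39 °C the G2M values rest on 12 to 42 UMIs of Ctgf per library and are not compared. These splits by phase were described with no test.

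Yap1 was lower in cycling cells in every library of both temperatures, by means of 26.3 against 21.8 CPM at 37 °C (-0.28 ± 0.072, adjusted p = 0.000335) and 30.5 against 21.8 CPM at 39 °C (-0.50 ± 0.085, adjusted p = 3.41e-08). The difference between temperatures did not pass (adjusted p = 0.196), and with phases scored in each library the 37 °C value was -0.15 (adjusted p = 0.0513). Wwtr1, which encodes the YAP paralog TAZ, was likewise lower in cycling cells in 4 of 4 libraries at each temperature (-0.22 ± 0.035 at 37 °C and -0.29 ± 0.040 at 39 °C). Tead2 was higher in cycling cells in 4 of 4 libraries at each temperature (0.23 and 0.24), though at 39 °C its call was lost without library 3 (0.19, adjusted p = 0.107) and with phases scored in each library (0.14, adjusted p = 0.0719). Axl was lower in cycling cells at 39 °C in all 4 libraries (-0.20 ± 0.042, adjusted p = 1.60e-05, the S cells being below G1 in 8 of 8 libraries of both temperatures), with -0.06 (adjusted p = 0.225) at 37 °C and a difference between the temperatures that did not pass (-0.13, adjusted p = 0.0996) but did so without library 3 at 37 °C (-0.17, adjusted p = 0.0402) or library 2 at 39 °C (-0.19, adjusted p = 0.0275). Cyr61, Amotl2, Lats2 and Tead1 passed at neither temperature, but with phases scored in each library Amotl2 passed as lower at 39 °C (-0.14, adjusted p = 0.00076). With library totals alone Cyr61, Amotl2, Lats2 and Axl also passed as lower at 37 °C, by -0.10 to -0.16, and Cyr61 passed as higher at 39 °C (0.08) and for the difference (0.19).

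**Figure D3:**
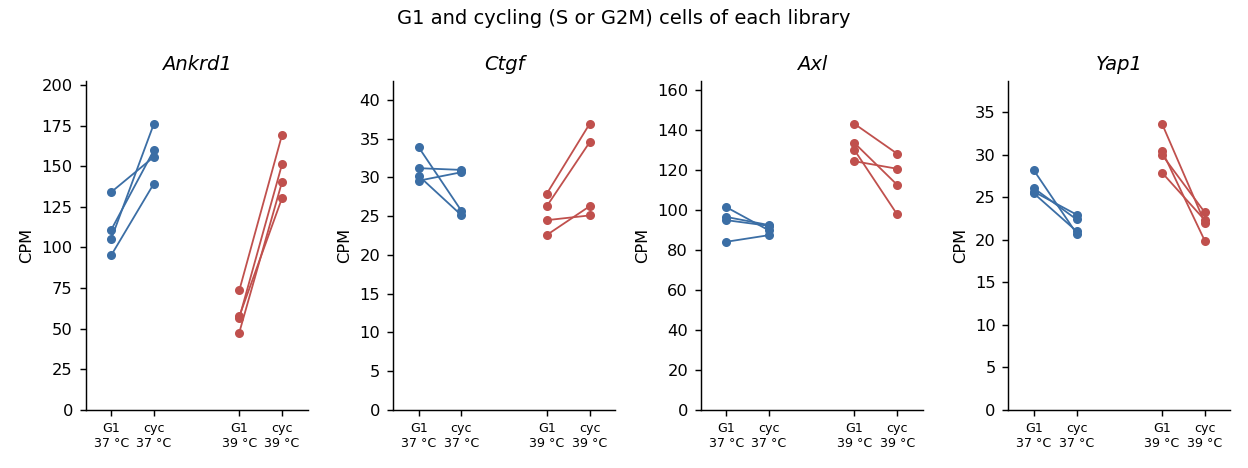
Level in CPM (vertical axes from 0) of Ankrd1, Ctgf, Axl and Yap1 in the G1 cells and the cycling cells (cyc) of each library, joined by a line per library, at 37 °C (blue) and 39 °C (red). Ankrd1 rises from G1 to cycling cells in all 8 libraries, more so at 39 °C, and Yap1 falls in all 8.

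Shares of cells with a UMI were compared after each cell was thinned to 4000 UMIs, which left out 385 cells at 37 °C and 981 at 39 °C. The cultures hold no other cell type that should lack these genes, so a share due to free RNA could not be set beside them. Ankrd1 was found in 28.8 to 32.1% of cells per library at 37 °C and in 17.0 to 19.1% at 39 °C (47.8 to 57.6% and 24.2 to 40.3% before thinning). Amotl2 went from 29.7 to 30.7% to 24.3 to 26.5%, Axl from 28.3 to 31.1% to 36.0 to 40.9%, Lats2 from 15.6 to 18.2% to 20.2 to 24.4% and Yap1 from 7.75 to 9.20% to 10.3 to 12.2%, none with overlap. How many of all genes had no overlap in this share was not computed. For summed levels in all cells it was 56.7% of genes tested, so a lack of overlap is common. Thinned to 2000 UMIs, which left out 119 and 310 cells, the ranges of Lats2 did overlap (8.80 to 10.76% and 10.74 to 12.5%), while those of Ankrd1, Amotl2, Axl and Yap1 did not. At 4000 UMIs the ranges overlapped for Ctgf (8.94 to 11.03% and 7.30 to 9.87%), Cyr61 (41.7 to 47.1% and 38.9 to 45.1%), Tead1 (29.3 to 30.0% and 27.9 to 30.5%) and Tead2 (10.3 to 13.3% and 9.88 to 11.1%). Before thinning the ranges were 20.1 to 28.0% and 15.3 to 23.6% for Ctgf and 63.0 to 75.6% and 55.7 to 72.9% for Cyr61.

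Thinned cells with Ankrd1 were most frequent in S at 37 °C, at 35.5 to 38.3% against 21.3 to 27.6% in G1 and 24.9 to 29.2% in G2M. At 39 °C the shares were 29.7 to 35.7% in S and 13.7 to 17.4% in G1. The share of cells and the summed level of Ankrd1 thus had the same order of G1 and S at each temperature.

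**Figure D4:**
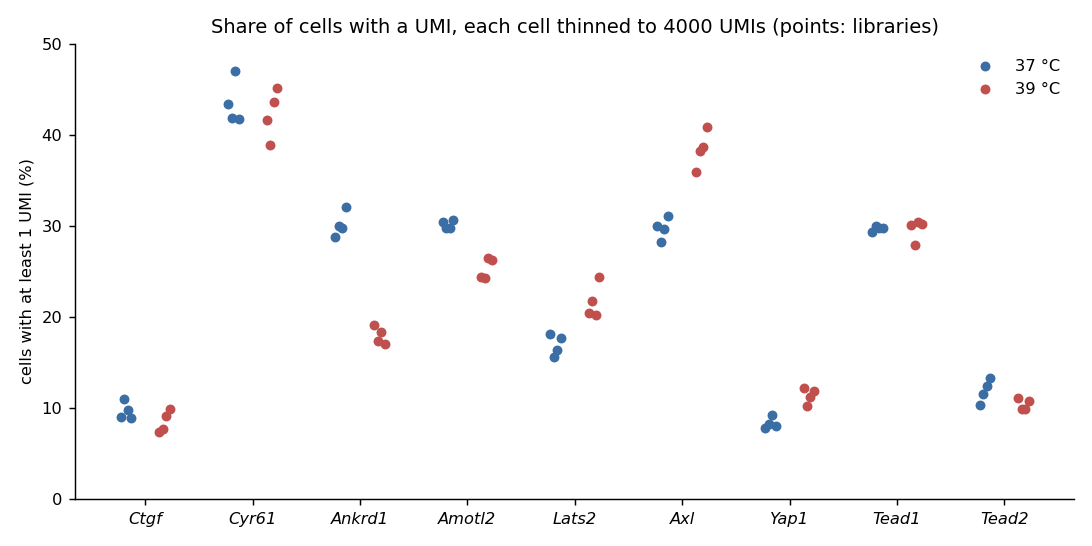
Share of cells with at least 1 UMI of each of the 9 genes (percent, vertical axis from 0), each cell thinned to 4000 UMIs, in the 4 libraries at 37 °C (blue) and the 4 at 39 °C (red). The share for Ankrd1 lies at 28.8 to 32.1% at 37 °C and 17.0 to 19.1% at 39 °C, and that for Axl at 28.3 to 31.1% and 36.0 to 40.9%.

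Of the 9 genes, Ankrd1 had the highest Fano factor in thinned cells (the variance over the mean, near 1 for counts that vary only by sampling). It was 2.06 to 2.88 at 37 °C and 1.97 to 2.80 at 39 °C. That of Cyr61 was 1.64 to 1.92 and 1.65 to 1.86, that of Ctgf 1.20 to 1.27 and 1.21 to 1.40, and that of Amotl2 1.20 to 1.26 and 1.12 to 1.25. Lats2, Axl, Yap1, Tead1 and Tead2 lay between 0.978 and 1.14. The factor also nears 1 as the mean of a gene falls, and the means differed. In library 1 at 37 °C they were 0.081 UMIs per thinned cell for Yap1, 0.106 for Ctgf, 0.484 for Ankrd1 and 0.748 for Cyr61. The order of the factors is therefore not read as an order of spread between cells.

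Cyr61, Ctgf and Amotl2 tended to be found in the same cells as Ankrd1. Lats2, Tead1 and Tead2 were not set beside Ankrd1 in this way, and no background of other gene pairs was computed. Among thinned cells with Ankrd1, 52.3 to 59.7% had Cyr61 at 37 °C, against 36.7 to 41.7% of cells without it. At 39 °C these shares were 46.0 to 55.4% and 37.4 to 43.0%. The share with Cyr61 was higher beside Ankrd1 in 8 of 8 libraries, as was the share with Ctgf (12.5 to 15.5% against 7.05 to 9.47% at 37 °C, 9.87 to 17.9% against 5.67 to 8.22% at 39 °C) and with Amotl2 (35.1 to 37.8% against 26.5 to 27.6%, and 28.0 to 34.6% against 22.7 to 25.0%). In G1 cells alone all 3 were again higher in 8 of 8 libraries. In all cells Axl was higher beside Ankrd1 in 2 of 8 libraries and Yap1 in 2 of 8, and in G1 cells each was higher in 3 of 8.

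As Pearson correlations over the thinned cells of a library (on log values), the pair Cyr61 and Ankrd1 had a mean r of 0.205 at 37 °C (0.193 to 0.218 over the 4 libraries) and 0.109 at 39 °C (0.107 to 0.112). Ctgf and Ankrd1 gave 0.118 and 0.126, Cyr61 and Amotl2 0.118 and 0.079, and Ctgf and Cyr61 0.103 and 0.068. Yap1 gave -0.012 and -0.019 with Ankrd1 and Axl gave -0.009 and -0.039. Cells of 1 library share its depth and preparation, and the counts are sparse, so these values are weak descriptions. Within libraries the correlation of Ankrd1 with the mitochondrial share of a cell was -0.158 to -0.060 at 37 °C and 0.012 to 0.076 at 39 °C, and with the UMIs of the cell before thinning 0.073 to 0.111 and -0.010 to 0.043, and their part in the pairs was not tested.

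The genes most like Cyr61 across cells at 37 °C were Inhba, Edn1, Ankrd1, Actg1 and Thbs1 (mean r of 0.211, 0.209, 0.205, 0.161 and 0.161), and at 39 °C Edn1, Thbs1, Inhba, Actg1 and Actb (0.170, 0.149, 0.148, 0.146 and 0.143). Those most like Ctgf at 37 °C were Actb, Ankrd1, Tmsb4x, Cyr61 and Thbs1 (0.120, 0.118, 0.106, 0.103 and 0.102), and at 39 °C Tmsb4x, Igfbp7, Thbs1, Cnn2 and Actb (0.151, 0.138, 0.137, 0.136 and 0.127). The order depends on the depth of thinning. At 2000 UMIs the 5 genes most like Ctgf at 39 °C were Tmsb4x, Ankrd1, Thbs1, Akap12 and Tpm1 (0.109, 0.090, 0.090, 0.089 and 0.087), without Igfbp7, and those at 37 °C no longer held Cyr61. The likeness is a mean over 4 libraries, and genes found in at least 10% of thinned cells of each were ranked. Actb and Actg1 encode the cytoplasmic actins, Tmsb4x an actin-binding peptide, Cnn2 a calponin, Inhba a subunit of activin, Edn1 the vasoconstrictor endothelin and Thbs1 a matricellular thrombospondin.

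Other genes of the pathway were taken from fixed lists. Of 16 other known YAP and TEAD targets, all tested, 9 were higher at 39 °C, 6 were lower and 1 (Foxf2) did not pass, beside 62% of all genes tested that passed (31.5% higher and 30.5% lower), and the median log2 fold change was 0.21. Igfbp3, which binds insulin-like growth factors, rose from 1.92 ± 0.26 to 7.99 ± 0.936 CPM (2.06 ± 0.12) and was the only one of the 16 past the stricter limit, beside 5.83% of all genes. Rbms3 (0.82), an RNA-binding protein, and Ptpn14 (0.67), a phosphatase that binds YAP, rose. Ccdc80 (-1.18), a matrix protein, Tgfb2 (-1.12), a growth factor of the TGF-beta family, and Fjx1 (-0.71), a relative of the Golgi kinase four-jointed, fell. Across this list, as across the 9 genes, both directions were present. In G1 cells the counts were 7 higher, 7 lower and 2 not passed, beside 47.1% of all genes that passed. In cycling cells they were 4, 4 and 8, beside 44.3%.

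Of the other TEAD factors and cofactors, 5 of 7 were tested, and all 5 passed, beside 62% of all genes. The paralogs of the factors above split: Wwtr1 rose from 119 ± 2.35 to 145 ± 3.77 CPM (0.28 ± 0.043) and Tead3 from 10.7 ± 1.22 to 15.9 ± 1.86 CPM (0.56 ± 0.089), whereas Tead4 fell from 6.86 ± 0.300 to 4.66 ± 0.494 CPM (-0.55 ± 0.091). In cycling cells Tead4 passed as lower (-0.70, adjusted p = 0.00261), while Wwtr1 (0.09, adjusted p = 0.21) and Tead3 (0.32, adjusted p = 0.0661) did not pass. Vgll4, a TEAD cofactor that competes with YAP, rose (0.41) and Vgll3 fell (-0.29). Vgll1 had 0 UMIs and Vgll2 had 1 over all libraries.

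Among 21 Hippo kinases, adaptors and upstream cadherins 8 were higher, 4 were lower and 9 did not pass, with a median of 0.07, so that 12 of 21 passed beside 62% of all genes. Fat1, a giant cadherin upstream of the pathway, rose from 78.8 ± 3.79 to 182 ± 8.33 CPM (1.21 ± 0.050), in G1 cells by 0.98 and in cycling cells by 0.81. Mob1b (0.75), the partner of LATS kinases, and Frmd6 (0.59), a FERM domain protein upstream of them, rose. Wwc1 (-0.80, the scaffold KIBRA), Amot (-0.49, the angiomotin that gives the family its name) and Mob1a (-0.16) fell. The MOB1 pair thus moved in opposite directions, as did Tead3 and Tead4.

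Contractile genes driven by SRF, which share upstream cues with YAP, went 1 way. Of 12 tested, 12 were lower at 39 °C, beside 30.5% of all genes, with a median of -1.12, and 4 were past the stricter limit, beside 5.83%. Acta2 (smooth muscle actin) fell from 225 ± 27.6 to 25.3 ± 4.90 CPM, Tagln (transgelin) from 95.6 ± 14.3 to 9.69 ± 2.85 CPM and Myl9 (a myosin light chain) from 24.5 ± 1.53 to 2.37 ± 0.412 CPM. In G1 cells 11 of 11 tested were lower, beside 22.4% of all genes, and in cycling cells 11 of 12, beside 23.8%. In the fit over phases, 3 of 12 were higher and 2 lower in cycling cells at 37 °C, beside 25% and 18.4% of all genes. At 39 °C 6 were higher and 2 lower, beside 19.2% and 21.1%.

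**Figure D5:**
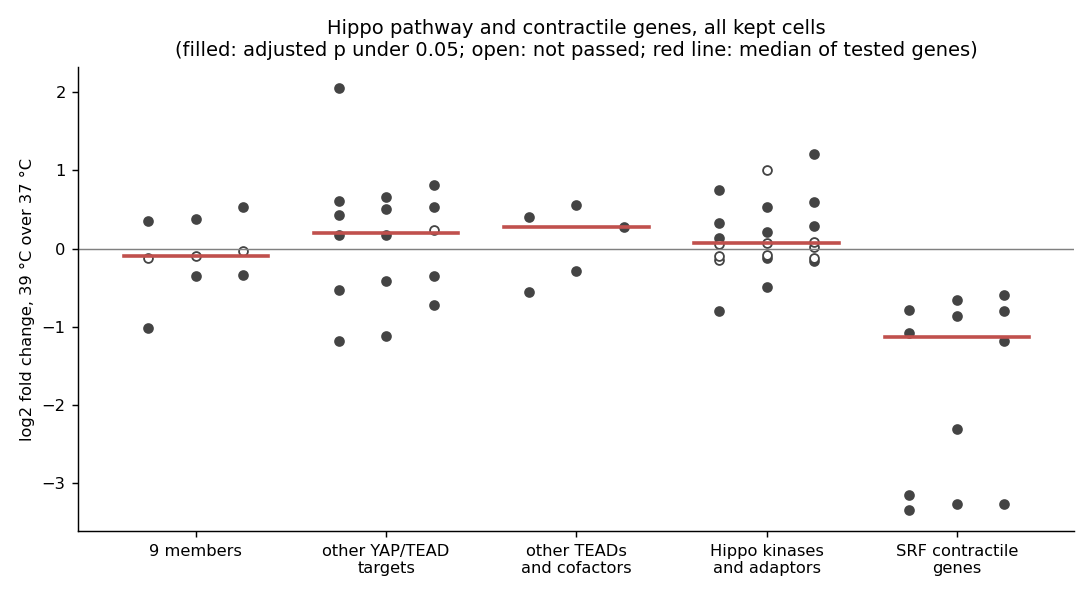
Log2 fold change (39 °C over 37 °C, all kept cells, vertical axis) of each tested gene of the 9 and of the 4 other lists, with the median of each list as a red line and filled points for genes that passed. The 12 contractile genes all lie below 0, with a median of -1.12, while the other lists hold genes on both sides of it.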

How the data were processed

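Single-cell transcriptomes of 8 libraries of SN4741 cells (4 at 37 °C, 4 at 39 °C, groups taken from the sample titles) were prepared by the authors with the Chromium 3' V3 kit, aligned to mm10 with Cell Ranger 3.0.1 and deposited as whole-number UMI counts per gene and cell, with no normalization. The kit tags the 3' end, so CPM values are not scaled by gene length. PCR duplicates are removed by the UMIs, and the number of UMIs limits the precision.

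Cells with over 15% mitochondrial UMIs, under 200 genes or over 6000 genes were left out, as in the study. No doublet caller was run beyond this upper limit. Phases were assigned with Seurat 5.3.0 (CellCycleScoring, 42 of 43 S genes and 52 of 54 G2M genes found) on all kept cells together. Counts were summed per library, or per library and phase class, those genes averaging 1 count or more per library were kept, and edgeR 4.0.16 in R 4.3.3 (TMM, glmQLFit, glmQLFTest, Benjamini-Hochberg over all genes tested) gave the tests. Passed means an adjusted p under 0.05. The SE is the log2 fold change over the square root of F. The fit over phases had 6 residual degrees of freedom and an infinite prior, so its p-values rest on a spread shared by genes of like level. No library was a copy of another: between libraries of the same temperature, chi-square divided by its degrees of freedom was 2.85 to 21.4.

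Tested on simulated data, the procedure recovered 100 of 100 genes changed by 1 and 100 of 100 changed by 2 on the log2 scale. False calls were 10 in all cells (15810 genes), 7 in G1 cells (14712) and 10 in the difference between temperatures by phase (14745). Changes under 1 in size were not simulated, so their recovery was not tested. In all cells the YAP and TEAD target genes ran from -1.01 (Ankrd1) to 0.53 (Axl), and all but Ankrd1 were under 1 in size. Alternatives were other scalings, filters on counts and cells, the replicate number as a block, DESeq2 1.42.0, equal totals, phases scored per library, thinning to 2000 UMIs, and each library left out.

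The 9 genes and the lists were chosen with earlier results of these data known. The comparison in cycling cells and its alternatives were added after the data were seen. Named from the lists were Wwtr1, Tead3, Tead4, up to 3 passed genes per direction with the largest fold change and a mean of 5 CPM or more at 1 temperature, and the 5 genes most like Ctgf and Cyr61. Foxf2, Vgll1 and Vgll2 were named after their values were seen. Positions are from GENCODE M21 (GRCm38), and promoters were matched by symbol or synonym.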

Additional observations from a re-analysis of the deposited data

Results flagged for a closer look

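A small number of results stood out by simple rules. Axl in all kept cells at 37 °C was lowest in library 2, at 85.0 CPM, with the other 3 libraries at 90.3 to 90.9 CPM, so that library lay far from the rest for its group. All 39 °C libraries lay above all of these values. Of 54 groups of 4 libraries examined 1 was flagged this way, and chance flags about 1 in 20.

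The difference between cycling and G1 cells changed with temperature for Ankrd1, by 0.84 on the log2 scale, and for Ctgf, by 0.46. Both kept a positive value that passed under all 10 alternatives run for this fit, at 0.43 to 0.96 for Ankrd1 and 0.23 to 0.58 for Ctgf. The lowest value of each was that with phases scored in each library alone. Within this fit both were also positive relative to the median of all genes, which was -0.06 and moved to 0.06 with library totals alone. The mix of S and G2M cells in the cycling class differed between the temperatures. The part of this mix in both values was not tested.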

How the results depend on the processing

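In all cells, 172 values of the 9 genes under 20 alternatives kept their side of the limit, and 8 passed newly (Ctgf under 1, Tead1 under 7). Cyr61, which passed under none, did not keep its direction and ran from -0.083 to 0.055. The count of genes that passed ranged from 9073 to 9939 (9803 as reported), and of the 9 genes lower from 3 to 5 with 1 library left out (5 without library 4 at 39 °C). In G1 cells 168 kept their side of the limit and 12 lost a call (Yap1 under 5 alternatives, at 0.16 to 0.20, and Tead2 under 7, at -0.25 to -0.11). Cyr61 ran there from -0.14 to 0.003. Genes past the stricter limit there were 374, and 584 with phases scored per library. In cycling cells those were 341 and 795, and of the 9 genes 1 was lower as reported, 3 with phases per library, and 1 to 3 with 1 library left out (3 without library 1 at 37 °C or library 3 at 39 °C). Of the genes lower in cycling cells at 37 °C, 2 as reported, 1 passed with phases per library, 6 with library totals only and 1 to 2 with 1 library left out (1 without library 1 or 4 at 37 °C). Of those higher at 39 °C, 3 as reported, 1 passed with phases per library. For the difference between temperatures, 0 passed as negative in edgeR, with 1 (Axl) at an unadjusted p under 0.05, and 0 to 1 with 1 library left out. Tead4 at 37 °C was lower in cycling cells with phases per library (-0.29). The causes were not tested.

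The replicate numbers did not appear to pair the libraries: the correlation of same-numbered libraries was -0.084 to 0.140 in all cells, and 1 of 4 (number 4) matched best with its own number. These correlations cannot exclude a shared culture or preparation, which the labels do not settle. With the number as a block (replicate block) 9617 genes passed in all cells, 6778 in G1 cells and 6503 in cycling cells, and the counts of the 9 genes were the same as without it.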
